A study of Equus caballus with 28 samples.

Results

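The family of miR-103 and miR-107 comprised 3 entries among the 690 known horse miRNAs counted in this study, eca-miR-103, eca-miR-107a and eca-miR-107b, chosen by name alone as all entries called eca-miR-103 or eca-miR-107 with any suffix. Small RNA was sequenced from 28 samples of 5 reproductively sound Warmblood mares, taken 13 days after ovulation. The 6 groups were endometrial biopsies of pregnant (n = 5) and cyclic (n = 4) mares, uterine fluid (UF) of pregnant (n = 5) and cyclic (n = 4) mares, and the tissue (n = 5) and yolk sac (YS) fluid (n = 5) of the embryos. The same mares went through a pregnant cycle, with insemination, and a cyclic control cycle without it, and ovulation was induced with hCG in both. UF came from an intrauterine tampon, and the embryonic tissue was stored without its capsule. Fluids were extracted with the miRNeasy Serum/Plasma kit, and tissues with the RNeasy Mini and MinElute kits. The samples are whole biopsies, embryos and fluids, so fewer cells of a type and less RNA per cell cannot be told apart.

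MicroRNAs guide silencing complexes to messenger RNAs, mainly through the seed, the bases next to their 5′ end. The genes of miR-103 and miR-107 lie in introns of the pantothenate kinase genes, whose enzymes open the synthesis of coenzyme A, and both miRNAs are known for lowering insulin sensitivity in liver and fat and for repressing caveolin-1 and Dicer. In human, the miR-103a genes lie in PANK2 and PANK3 and the miR-107 gene lies in PANK1. In the RefSeq annotation of the horse (assembly TB-T2T), the gene of eca-miR-103 lay within PANK2, that of eca-miR-107a within PANK3 and that of eca-miR-107b within PANK1, each spanned by 1 other gene. The position of eca-miR-107a is therefore that of a human miR-103a gene, and the position of eca-miR-107b is that of human miR-107. The mature sequences were not used here.

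Libraries of endometrium and UF held 61836 to 590593 miRNA reads each, and those of embryo and YS fluid held 4352 to 44768. The miRNAs of the early embryo, the miR-302 group with eca-miR-367, eca-miR-371-5p and eca-miR-372, marked the conceptus, with 7 of 7 read and a sum of 11984 to 263992 CPM (counts per 1000000 miRNA reads of the library). In endometrium and UF the same 7 reached at most 32.2 CPM in sum. Stromal and smooth muscle miRNAs summed to between 12111 and 45569 CPM in the endometrium, to at most 5532 in UF and YS fluid and to at most 797 in the embryos. Blood miRNAs summed to between 2670 and 13410 CPM in the endometrium and to between 112 and 3233 elsewhere. Leukocyte miRNAs summed to between 1268 and 3474 CPM in endometrium and UF and to between 48.3 and 919 in embryo and YS fluid, where only 3 and 1 of 5 were read. Epithelial miRNAs of the miR-200 family were high in every group, between 48634 and 131785 CPM.

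All 3 members were read in all 28 libraries, with 9183 reads of eca-miR-103, 8129 of eca-miR-107a and 2280 of eca-miR-107b. The lowest counts were 32, 30 and 4 reads, so none fell below a floor of 3 reads. The family split into a pair whose counts ran in parallel, eca-miR-103 and eca-miR-107a, and eca-miR-107b, whose ratio to them varied more between libraries. The pair stood out in YS fluid, and eca-miR-107b was scarce beside it in both samples of the conceptus.

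**Figure D1:**
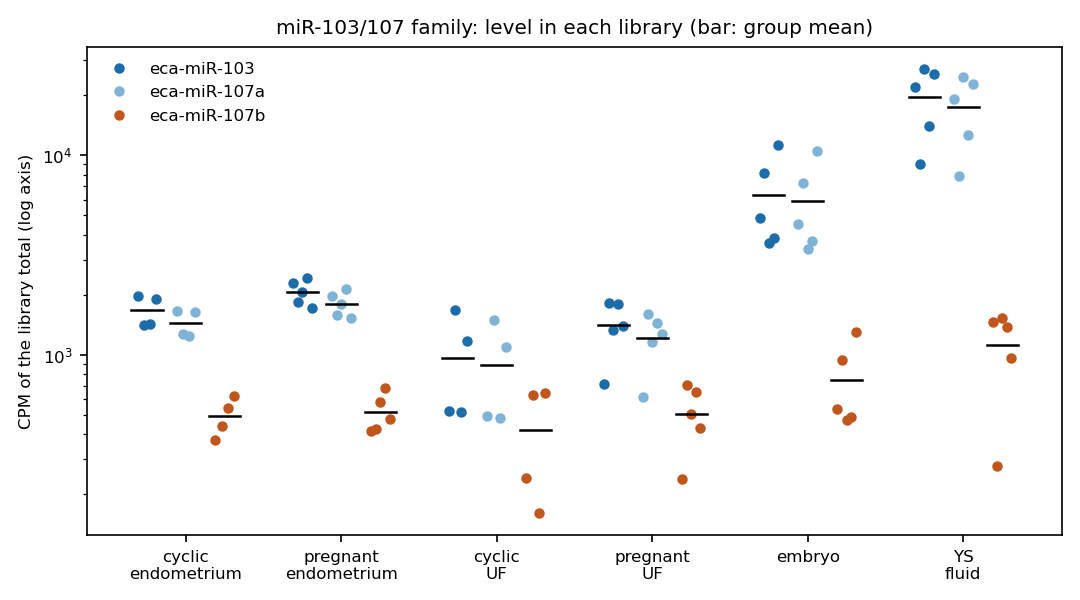
CPM of the library total (log axis) of eca-miR-103, eca-miR-107a and eca-miR-107b in each of the 28 libraries by group, with a bar at the group mean. eca-miR-103 and eca-miR-107a lie side by side, from a mean of 967 and 891 in cyclic UF to 19501 and 17427 in YS fluid, while the means of eca-miR-107b lie between 418 and 1120.

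In YS fluid, eca-miR-103 was at 22017, 8993, 27017, 14017 and 25463 CPM in the embryos of mares 1 to 5, where it ranked between 8th and 21st among all miRNAs of a library. In the embryonic tissue it was at 4822, 8108, 3618, 3845 and 11255 CPM. The embryos of mares 2 and 5 were the highest of the tissue, and YS fluid of mare 2 was the lowest of the fluid, below the highest embryo. Pregnant endometrium had 2288, 1843, 2064, 2410 and 1705 CPM, and cyclic endometrium of mares 1 to 4 had 1973, 1402, 1418 and 1893. Pregnant UF had 713, 1816, 1328, 1796 and 1389 CPM, and cyclic UF had 522, 1666, 515 and 1165. All 10 libraries of the conceptus lay above all 18 libraries of endometrium and UF. The maternal groups overlapped each other except pregnant endometrium and cyclic UF. How many other miRNAs separated conceptus and mare as fully was not counted. With libraries scaled by their totals, the median log2 fold change of all miRNAs tested was also positive. It was 1.16 for YS fluid and 0.30 for embryo against pregnant endometrium, and 1.14 and 1.18 against pregnant UF. The spread of eca-miR-103 was narrow in the endometrium, with the highest library 1.41-fold above the lowest in both conditions. It was wider in embryo (3.11-fold) and cyclic UF (3.23-fold).

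Ordered by mean CPM, eca-miR-103 was at 19501 ± 7727 (SD, n = 5) in YS fluid, 6330 ± 3287 (SD, n = 5) in embryo, 2062 ± 295 (SD, n = 5) in pregnant endometrium, 1671 ± 304 (SD, n = 4) in cyclic endometrium, 1408 ± 449 (SD, n = 5) in pregnant UF and 967 ± 557 (SD, n = 4) in cyclic UF. YS fluid exceeded embryo 3.08-fold and embryo exceeded pregnant endometrium 3.07-fold. Each had an adjusted p of 0.0397 in exact two-sided permutation tests of the log2 CPM, adjusted over the 5 neighbours in the order. The neighbours were chosen by these same means, so the adjustment does not cover that choice. The tests also took libraries as unpaired, although the groups hold samples of the same mares. The 3 further neighbours did not differ beyond the spread between libraries in these unpaired tests. The adjusted exact p was 0.185 between pregnant and cyclic endometrium, 0.365 between cyclic endometrium and pregnant UF and 0.218 between pregnant and cyclic UF. Pregnant and cyclic samples are compared within mares further below. On CPM scaled by the TMM method over the 28 libraries, which sets libraries level on the bulk of their miRNAs, pregnant endometrium (3368 ± 470, SD, n = 5) and embryo (3194 ± 1205, SD, n = 5) changed places. YS fluid stayed highest there at 8725 ± 4205 (SD, n = 5), with an adjusted exact p of 0.159 against pregnant endometrium.

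eca-miR-107a followed eca-miR-103 closely, between 80.5 and 96.4 reads per 100 reads of eca-miR-103 in the same library and never above it. Its mean CPM was 17427 ± 7030 (SD, n = 5) in YS fluid, 5868 ± 2979 (SD, n = 5) in embryo and between 891 and 1800 in the maternal groups. In YS fluid of mares 1 to 5 it was at 19249, 7887, 24721, 12638 and 22641 CPM, with mare 2 again the lowest. Over the 28 libraries the chi-square of the paired counts was 0.147 per degree of freedom, against about 1 for independent reads. The counts of the pair can therefore not be taken as separate measurements. For eca-miR-107b against eca-miR-103 the chi-square per degree of freedom was 15.5 over the 28 libraries. Within groups it was 0.071 in embryo and 0.301 in pregnant UF, and between 1.39 and 5.11 in the others. eca-miR-199a-3p and eca-miR-199b-3p, a pair picked after the counts were seen, differed by at most 11 reads in a library with 24955 and 24910 reads in all. The counting of reads that match more than 1 miRNA was not stated in the sources used here. Whether eca-miR-103 shared reads with eca-miR-107a or with eca-miR-107b was not tested. The mean log2 ratio of eca-miR-103 to eca-miR-107a was 0.10 ± 0.04 (SD, n = 5) in embryo and 0.20 ± 0.02 (SD, n = 5) in pregnant endometrium, without overlap. The adjusted exact permutation p was 0.0714, the smallest of the 9 comparisons of this ratio. Embryo against pregnant UF and embryo against YS fluid shared that adjusted p. Other ratios of miRNAs without overlap were not counted.

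**Figure D2:**
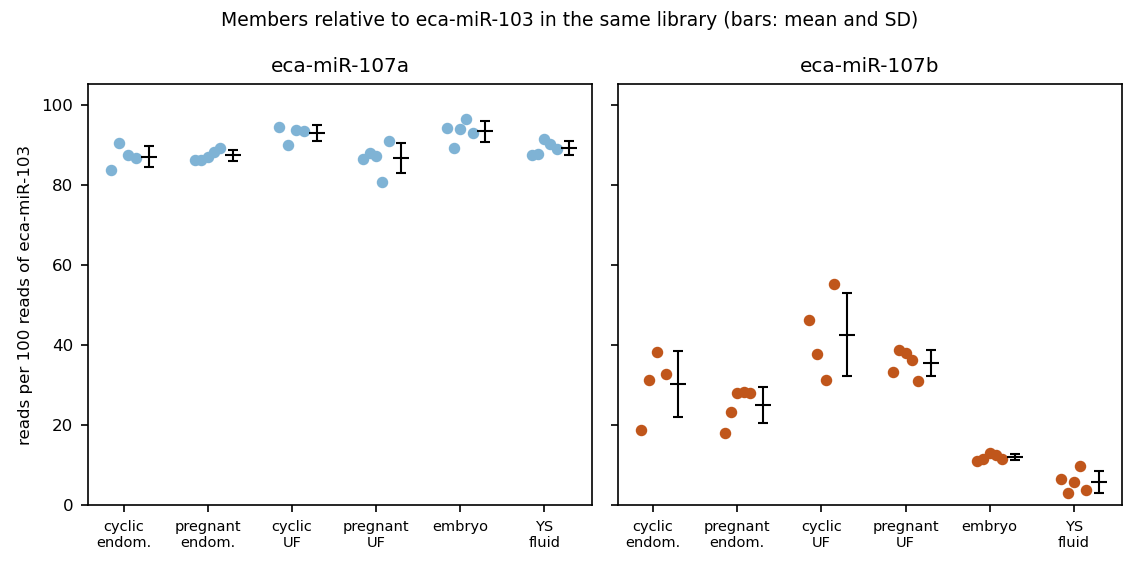
Reads of eca-miR-107a (left) and eca-miR-107b (right) per 100 reads of eca-miR-103 in each library by group, with the mean and SD. eca-miR-107a lies between 80.5 and 96.4 throughout, and eca-miR-107b lies between 18.0 and 55.1 in endometrium and UF and between 3.08 and 13.0 in embryo and YS fluid.

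eca-miR-107b was at 1450, 277, 1531, 1379 and 963 CPM in YS fluid of mares 1 to 5, from 11, 4, 20, 6 and 14 reads. The 4 reads of mare 2 set its level between 75.4 and 708 CPM (95% exact Clopper-Pearson interval, for counting error only). In the embryos it was at 532, 938, 470, 485 and 1304 CPM, where mares 2 and 5 were again the highest. It was at 413, 426, 579, 678 and 476 CPM in pregnant and 371.95, 438, 541 and 618 CPM in cyclic endometrium. In pregnant UF it was at 238, 703, 504, 651 and 429.4 CPM and in cyclic UF at 241, 627, 161 and 641. All 6 groups overlapped, and of the 5 neighbours in the order of mean CPM none differed beyond its spread. The smallest adjusted p was 0.762 in exact permutation tests that took libraries as unpaired. The order itself depended on the scaling, since YS fluid had the highest mean CPM (1120 ± 520, SD, n = 5) while pregnant endometrium had the highest mean TMM-scaled CPM (840.1 ± 179, SD, n = 5).

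Taken per 100 reads of eca-miR-103 of the same library, which no scaling of libraries changes, eca-miR-107b separated the conceptus from the mare. YS fluid had 6.59, 3.08, 5.67, 9.84 and 3.78 reads of eca-miR-107b per 100 of eca-miR-103 in mares 1 to 5, and the embryos had 11.0, 11.6, 13.0, 12.6 and 11.6. Pregnant endometrium had 18.0, 23.1, 28.1, 28.1 and 27.9, and cyclic endometrium had 18.9, 31.3, 38.1 and 32.6. UF had the highest means, with 33.3, 38.7, 37.9, 36.2 and 30.9 in pregnant mares and 46.2, 37.7, 31.3 and 55.1 in cyclic mares, and it overlapped with cyclic endometrium. The 18 libraries of endometrium and UF did not overlap with the 10 of embryo and YS fluid, and YS fluid and embryo did not overlap either. How many other ratios of miRNAs separate these groups as fully was not counted.

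The ratio was compared between groups with exact two-sided permutation tests, a comparison chosen after the counts were seen. Its log2 value was 1.02 lower in embryo than in pregnant endometrium (difference −1.02, standard error, SE, 0.13), or 0.492 of the endometrial ratio. In YS fluid the difference from pregnant endometrium was −2.14 (SE 0.32), and from pregnant UF it was −2.66 (SE 0.30). Embryo differed from pregnant UF by −1.54 (SE 0.07) and from YS fluid by 1.113 (SE 0.29). Pregnant UF exceeded pregnant endometrium by 0.52 (SE 0.14), or 1.44-fold. Each of these 6 differences had a p of 0.00794, the smallest that 5 against 5 samples allow in the exact test, and an adjusted p of 0.0119 over 9 comparisons. The groups did not overlap in any of the 6, so compared by mare all 5 mares had to move the same way in each. The exact sign-flip p was 0.0625, the smallest that 5 pairs allow, with an adjusted p of 0.0938. Without any single mare, the adjusted exact p of each was 0.0429, which the lack of overlap also fixed. Neither result is separate support for the differences. Cyclic UF against cyclic endometrium gave a similar difference of 0.51 (SE 0.27) that did not exceed the spread, with an adjusted exact p of 0.161. Embryo and endometrium shared a kit, with the difference of −1.02, as did YS fluid and UF, with that of −2.66. The other 4 differences crossed kits, and the part of the kit in them was not tested. The conceptus libraries were also the shallow ones, with YS fluid (4352 to 14531 reads) below embryo (28204 to 44768). The part of depth was not tested. The shallowest maternal libraries were cyclic endometrium of mare 1 and cyclic UF of mare 3, with 61836 and 62087 reads. They had ratios of 18.9 and 31.3, each the lowest of its own group. The shallowest library was also the lowest in embryo (mare 1, 28204 reads, 11.0) and pregnant UF (mare 5, 79173 reads, 30.9). It was instead the highest in YS fluid (mare 4, 4352 reads, 9.84) and pregnant endometrium (mare 4, 280065 reads, 28.1). Pregnant endometrium of mare 1 had the lowest ratio of its group, 18.0, at 344017 reads.

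In the endometrium, eca-miR-103 was 1.16- to 1.46-fold higher by CPM in the pregnant than in the cyclic sample of 4 of 4 mares, which addresses whether pregnancy changes the family in the uterus. Scaled by TMM, pregnant endometrium had 2233 ± 359 CPM (SD, n = 5), against 1530.0 ± 339 (SD, n = 4) in the cyclic state. With the mare as block, the log2 fold change was 0.61 (SE 0.26, edgeR FDR 0.223), short of the 2-fold change and FDR of 0.05 used for a call. eca-miR-107a gave 0.61 (SE 0.26, FDR 0.223) and eca-miR-107b gave 0.31 (SE 0.32, FDR 0.778), with eca-miR-107b higher during pregnancy in 3 of 4 mares. Of the 3 members 0 were called, where 3.37% of the 386 miRNAs tested were called, and 65 miRNAs had an unadjusted p under 0.05. Those of eca-miR-103 and eca-miR-107a were 0.0187 and 0.0213. The exact sign-flip test over 4 mares gave a p of 0.125 for eca-miR-103, the smallest it allows. Per 100 reads of eca-miR-103, eca-miR-107b was lower in the pregnant endometrium of 4 of 4 mares, a mean log2 difference of −0.29 (SE 0.09, adjusted exact p 0.161).

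**Figure D3:**
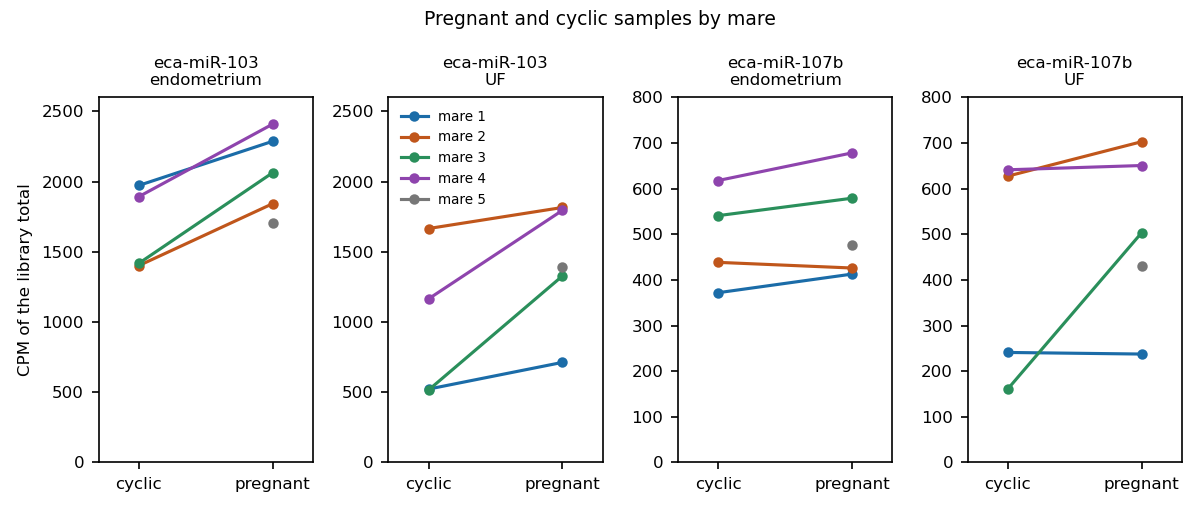
CPM of the library total of eca-miR-103 and eca-miR-107b in the cyclic and pregnant samples of each mare (lines join samples of a mare, and mare 5 has a pregnant sample only), in endometrium and UF. All 4 lines of eca-miR-103 slope upward in both, by 1.16- to 1.46-fold in the endometrium and by 1.09- to 2.58-fold in UF, and 3 of 4 lines of eca-miR-107b slope upward in each.

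In UF, eca-miR-103 was likewise higher by CPM during pregnancy in all 4 mares, between 1.09-fold in mare 2 and 2.58-fold in mare 3. Cyclic UF of mare 3 held only 32 reads of eca-miR-103 among 62087. The exact sign-flip p was 0.125, the smallest that 4 mares allow. Scaled by TMM, eca-miR-103 was at 1404 ± 401 CPM (SD, n = 5) in pregnant UF against 909 ± 401 (SD, n = 4) without pregnancy. This is 0.72 as log2 fold change (SE 0.41, edgeR FDR 0.464, mare as block), and it was 0.53 without mare 3 (FDR 0.619). The log2 fold changes of eca-miR-107a and eca-miR-107b were 0.60 and 0.50 (SE 0.42 and 0.47, FDR 0.613 and 0.809). Of the 3, 0 were called, where 4.92% of 305 tested miRNAs were called (1.31% higher, 3.61% lower) and 43 had an unadjusted p under 0.05. The log2 effect of pregnancy in UF minus that in endometrium was −0.01, −0.13 and 0.06 for eca-miR-103, eca-miR-107a and eca-miR-107b (SE 0.44, 0.43 and 0.50, FDR 1 for each in the edgeR interaction fit, which called 1.69% of 415 miRNAs).

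Between UF and endometrium, eca-miR-103 was lower in UF in both conditions without being called in edgeR. The log2 fold change was −0.67 (SE 0.29, FDR 0.077) in pregnant mares, where 33.7% of 359 miRNAs were called (13.6% higher, 20.1% lower), and −0.96 (SE 0.41, FDR 0.0925) in cyclic mares, where 30.8% of 328 were called (11.9% higher, 18.9% lower). eca-miR-107a gave −0.69 and −0.88 (FDR 0.0677 and 0.128). eca-miR-107b gave −0.14 and −0.45 (FDR 0.773 and 0.54), each less than its SE of 0.33 and 0.51. Of the 3 members 0 were called in either comparison, with 171 and 125 of all miRNAs at an unadjusted p under 0.05. In pregnant mares DESeq2 gave the pair −0.73 and −0.75 with FDR of 0.0241 and 0.0172, short only of the 2-fold change. In cyclic mares its FDR for the pair was 0.242 and 0.307.

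The pair rose in YS fluid against both maternal sites. Against pregnant endometrium, eca-miR-103 was at 9626 ± 3597 TMM-scaled CPM (SD, n = 5) and 4167 ± 677 (SD, n = 5), or 1.21 as log2 fold change (SE 0.35, edgeR FDR 0.00785). Against pregnant UF it was at 10538 ± 4327 (SD, n = 5) and 2622 ± 895 (SD, n = 5), or 2.01 as log2 fold change (SE 0.39, edgeR FDR 0.000433). eca-miR-107a gave 1.25 and 2.06 (FDR 0.00686 and 0.000385). The pair was thus called higher in both, where 17.9% of 341 and 23.5% of 277 miRNAs were called higher, 35.2% and 36.1% lower, and 53.1% and 59.6% in either direction. eca-miR-107b had log2 fold changes of −0.95 (SE 0.43, FDR 0.0776) and −0.71 (SE 0.47, FDR 0.202) and was not called. Without mare 5 the call of the pair against endometrium was lost, at 0.93 for eca-miR-103 (FDR 0.079) and 0.97 for eca-miR-107a (FDR 0.0698). It was also lost without a filter on low counts, at 0.81 (FDR 0.0609) and 0.84 (FDR 0.0539), while that fit called eca-miR-107b lower at −1.35 (FDR 0.0164).

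In the embryonic tissue, 0 of the 3 members were called in the fits of each pair of groups scaled by TMM with the filter on low counts. Against pregnant endometrium the log2 fold change of eca-miR-103 was 0.26 (SE 0.32, FDR 0.485), that of eca-miR-107a 0.35 (SE 0.32, FDR 0.335) and that of eca-miR-107b −0.81 (SE 0.37, FDR 0.0641), so 0 of 3 were called beside 71.3% of 359 miRNAs (28.7% higher, 42.6% lower). Without mare 5, eca-miR-103 turned to −0.18 and eca-miR-107b was called lower at −1.19 (FDR 0.0267). It was also called lower with the 28 libraries in a single fit, at −1.14 (FDR 0.0296). Against pregnant UF the values were 0.62 (FDR 0.209), 0.72 (FDR 0.143) and −0.99 (FDR 0.101), again 0 of 3 where 68.4% of 310 were called (29.7% higher, 38.7% lower). Without mare 2, eca-miR-107a was called higher at 1.17 (FDR 0.0483), as it was without the filter at 1.06 (FDR 0.047). With each mare left out, the values against UF ranged from 0.73 to 1.04, 0.85 to 1.17 and −0.90 to −0.52. The fit of all mares lay outside each of these ranges. Median-of-ratios factors, DESeq2 and library totals each called the pair higher than in UF, with eca-miR-103 at 1.36, 1.36 and 2.17. Against YS fluid the values were −0.996 (FDR 0.0784), −0.95 (FDR 0.0906) and 0.08 (FDR 0.916), 0 of 3 where 35.1% of 259 were called (22% higher, 13.1% lower). In the single fit of 28 libraries the pair was called lower than in YS fluid, at −1.45 and −1.40 (FDR 0.00631 and 0.00733). Of all miRNAs, 275, 218 and 126 had an unadjusted p under 0.05 in these 3 comparisons.

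TMM set the conceptus libraries far lower than their totals do. By library totals alone, an alternative added after the data were seen, the median log2 fold change of all miRNAs moved up by 2.00 for YS fluid and by 1.33 for embryo against pregnant endometrium. Calls over all miRNAs went from 61 higher and 120 lower to 119 and 59 for YS fluid against endometrium. For embryo against endometrium they went from 256 calls with 153 of them lower to 140 higher and 94 lower. They went from 65 and 100 to 114 and 52 for YS fluid against UF, from 92 and 120 to 146 and 85 for embryo against UF, and from 57 and 34 to 40 and 55 for embryo against YS fluid. On that scale eca-miR-103 was called higher in YS fluid than in endometrium at 3.25 (FDR 1.5e-06) and in embryo than in endometrium at 1.62 (FDR 0.00184). It was also called higher in embryo than in UF at 2.17 (FDR 0.000847) and lower in embryo than in YS fluid at −1.62 (FDR 0.0144). With size factors of the median-of-ratios method in edgeR, eca-miR-103 was called higher in embryo than in UF at 1.36 (FDR 0.00723) and lower in embryo than in YS fluid at −1.12 (FDR 0.0306). The direction of eca-miR-107b between conceptus and mare flipped, from −0.81 to 0.54 for embryo against endometrium and from −0.95 to 1.09 for YS fluid against endometrium by library totals (FDR 0.245 and 0.0544).

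**Figure D4:**
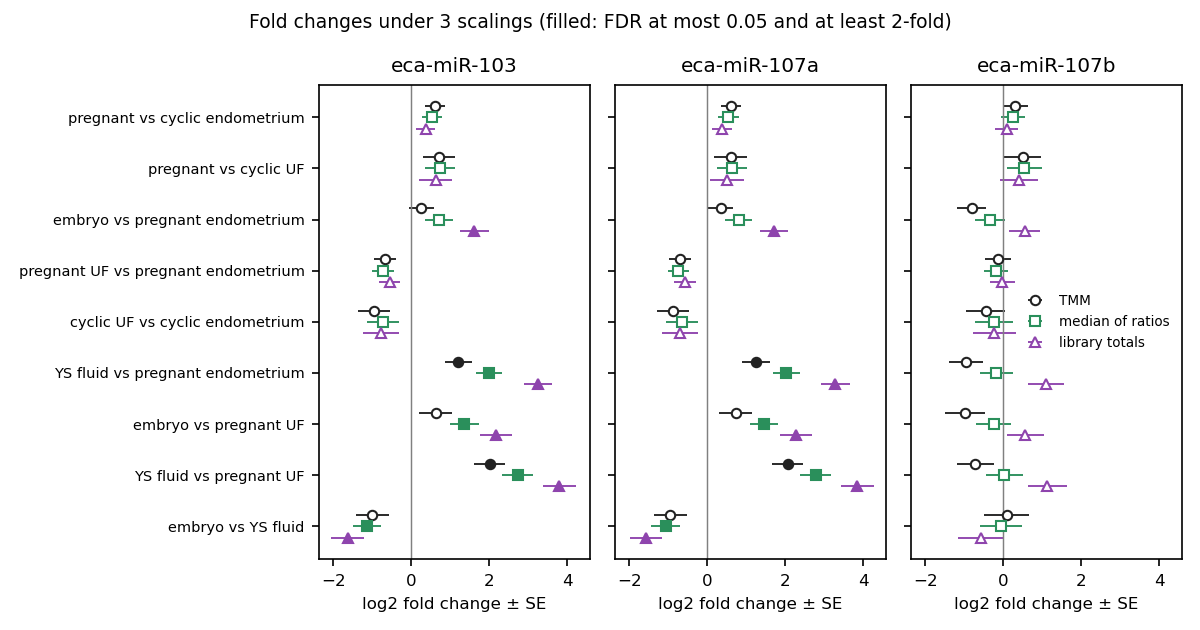
Log2 fold changes with SE of the 3 members in the 9 comparisons, with libraries scaled by TMM, by the median of ratios or by library totals, where filled symbols mark an FDR of at most 0.05 and a change of at least 2-fold. For YS fluid against pregnant UF, eca-miR-103 is called under each scaling (2.01 by TMM and 3.798 by library totals), while eca-miR-107b is called in 0 of the 9 comparisons under any of the 3 scalings and changes sign in several.

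The miR-15 and miR-107 group joins these miRNAs to eca-miR-15a, eca-miR-15b, eca-miR-16, eca-miR-195, eca-miR-424, eca-miR-497 and eca-miR-503, relatives with a similar 5′ end that are known to restrain the cell cycle. Of these, 0 of 7 tested were called between pregnant and cyclic mares in endometrium and 0 of 6 in UF, where 3.37% and 4.92% of all miRNAs were. Between YS fluid and pregnant endometrium 4 of 7 were called lower and 0 higher, where 35.2% and 17.9% of all miRNAs were, with a median log2 fold change of −2.06 beside −0.84 for all miRNAs tested. Between embryo and pregnant endometrium 1 was called higher and 3 lower, where 28.7% and 42.6% of all miRNAs were (median −0.93, all miRNAs −1.03). The 1 that rose in the embryo was eca-miR-16, at 44854 ± 13233 TMM-scaled CPM (SD, n = 5) against 13774 ± 2532 (SD, n = 5) in endometrium, or 1.70 as log2 fold change (SE 0.24, edgeR FDR 8.3e-05). In YS fluid eca-miR-16 was not called, at −0.63 (SE 0.31, FDR 0.0975), but it was called lower without the filter at −1.01 (FDR 0.0119) and higher by library totals at 1.42 (FDR 0.000888). eca-miR-195 fell in both, with log2 fold changes of −6.45 and −7.06 (edgeR FDR 5.8e-06 and 5.5e-07). The stromal marker eca-miR-143 fell alongside, at −6.96 and −5.45 (edgeR FDR 2.3e-06 and 2.2e-05), and its part in the fall of eca-miR-195 was not tested. Between embryo and pregnant UF 2 of the 7 were called higher and 1 lower (all miRNAs 29.7% and 38.7%). Between YS fluid and pregnant UF 1 of 6 tested was called higher and 2 lower (all miRNAs 23.5% and 36.1%), and between embryo and YS fluid 2 of 5 were called higher and 0 lower (all miRNAs 22% and 13.1%). Between UF and endometrium 3 of 7 were called lower in pregnant mares (all miRNAs 20.1%) and 4 of 7 in cyclic mares (all miRNAs 18.9%), and 0 higher (all miRNAs 13.6% and 11.9%).

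The known miRNAs whose log2 CPM over the 28 libraries was most like that of eca-miR-103 were eca-miR-20b, eca-miR-122 and eca-miR-652 (Pearson r of 0.903, 0.887 and 0.886), among 151 known miRNAs with a mean of at least 100 CPM. The same 3 led for eca-miR-107a, at 0.913 for eca-miR-20b, 0.896 for eca-miR-652 and 0.896 for eca-miR-122. eca-miR-107b was most like eca-miR-193b, eca-miR-30d and eca-miR-652, at only 0.698, 0.691 and 0.629. Between members r was 0.999 for the pair and 0.773 for eca-miR-107b with eca-miR-103. The 28 libraries share 6 groups and 5 mares and differ in depth by group, so these are descriptions over libraries that are not independent.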

How the data were processed

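The authors trimmed reads with cutadapt 1.11, removed reads under 17 bp, of quality under 20 or with ambiguous bases, and counted reads with miRPro on known horse miRNAs of miRBase release 22 and on miRNAs predicted on EquCab2.0. They deposited raw counts per miRNA and library. A further deposited set, of precursors, repeats the counts of the predicted miRNAs and was not used. Known (690) and predicted (154) miRNAs were tested together. For each of 9 comparisons, a miRNA needed at least 1 CPM in a number of libraries equal to the smaller group, TMM factors scaled the libraries, and the quasi-likelihood test of edgeR 4.0.16 (R 4.3.3) was used with Benjamini-Hochberg adjustment over all miRNAs tested, with calls at an FDR of at most 0.05 and at least 2-fold. Fits of pregnancy against the cyclic state had the mare as block, as the study's methods describe paired cycles of the same mares, and the number in a sample's label was taken as the mare. Same-mare samples resembled each other there on average, with a mean correlation of deviations from the group mean of 0.232 in endometrium and 0.324 in UF. The lowest of the 4 pairs was at −0.054 in endometrium and 0.065 in UF. Mare 5 has no cyclic sample here and enters the scaling and group means but not that contrast. Ratios of members used 0.5 added reads, with exact permutation or sign-flip tests. Alternatives were DESeq2 1.42.0, median-of-ratios size factors, no filter, the block added or left out, 28 libraries in a single fit, members summed, 1 added read, each mare left out and, added later, library totals alone. Depth was between 4352 and 590593 reads, so that 3 reads equal between 5.08 and 689 CPM. Other calculations used Python 3.11.15, numpy 2.4.6, pandas 2.3.3 and scipy 1.17.1, and the methods were tested on simulated data. Named are the members, members of the miR-15 and miR-107 group and of a list of metabolic miRNAs with a mean of at least 100 CPM, the marker lists, and for each member the 3 known miRNAs of highest correlation of log2(CPM + 10). The family and the lists were chosen with earlier results of these data known.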

Additional observations from a re-analysis of the deposited data

How the results depend on the processing

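Values are log2 fold changes in the order eca-miR-103, eca-miR-107a and eca-miR-107b unless named. By library totals, embryo against pregnant endometrium gave 1.62, 1.71 and 0.54, embryo against pregnant UF 2.17, 2.27 and 0.57, embryo against YS fluid −1.62, −1.57 and −0.57, and eca-miR-107b in YS fluid 1.09 against endometrium and 1.12 against UF. Median-of-ratios factors gave 1.36 and 1.46 for the pair in embryo against UF, −1.12, −1.07 and −0.054 in embryo against YS fluid, and 0.024 for eca-miR-107b in YS fluid against UF, and DESeq2 gave 1.36, 1.46, −1.13, −1.07, −0.021 and 0.021 in the same order. With 28 libraries in a single fit, eca-miR-103 was at −0.072 and eca-miR-107b at −1.14 (called, FDR 0.0296) in embryo against endometrium, and embryo against YS fluid gave −1.45, −1.40 and −0.35, with the pair called (FDR 0.00631 and 0.00733). Without a filter, YS fluid against endometrium gave 0.81, 0.84 and −1.35 (the last called, FDR 0.0164), and eca-miR-107a in embryo against UF was called at 1.06 (FDR 0.047). With the 3 members summed, the sum replaced eca-miR-107b at 0.23 and 1.08 for embryo and YS fluid against endometrium, 0.50 and 1.83 against UF, and −0.93 for embryo against YS fluid. The difference of pregnancy effects of the pair turned to 0.23 and 0.11 (median of ratios), 0.25 and 0.13 (library totals) and 0.21 (summed), and that of eca-miR-103 to 0.055 (no filter) and 0.035 (no replicate block). eca-miR-16 in YS fluid against endometrium turned to 0.15 (median of ratios), 0.15 (DESeq2) and 1.42 (library totals, called higher, FDR 0.000888), and was called lower at −1.01 without a filter (FDR 0.0119). Without the block, the log2 ratio of eca-miR-103 to eca-miR-107a between pregnant and cyclic endometrium was −0.0053. Paired by mare (replicate block), the 6 called differences of the log2 ratio of eca-miR-107b to eca-miR-103 kept their values of −1.02, 0.52, −2.14, −1.54, −2.66 and 1.113, with an adjusted exact p of 0.0938, and the block changed no call of a member in the edgeR fits. With each mare left out, embryo against endometrium ranged from −0.18 to 0.38, −0.085 to 0.46 and −1.19 to −0.66, YS fluid against endometrium from 0.93 to 1.31 and 0.97 to 1.34 for the pair, eca-miR-107a in embryo against UF from 0.85 to 1.17, and eca-miR-107b in embryo against YS fluid from −0.32 to 0.50. The differences of pregnancy effects ranged from 0.072 to 0.33, −0.049 to 0.22 and −0.011 to 0.54. The log2 ratio of eca-miR-103 to eca-miR-107a ranged from −0.019 to 0.017 between pregnant and cyclic endometrium and from −0.017 to 0.023 between pregnant UF and endometrium. Counts of all called miRNAs moved for pregnancy from 13 to 0 in endometrium and from 15 to 0 in UF without the block or in the single fit, from 15 to 7 in UF with DESeq2, and for embryo against YS fluid from 91 to 54 with the block and 140 in the single fit, and with each mare left out they ranged from 2 to 26 in UF, 40 to 74 for embryo against YS fluid and 0 to 20 for the difference of pregnancy effects, which was 7 and 0 without the block. The causes were not tested. YS fluid held 4 to 20 reads of eca-miR-107b a library, which limits its precision there.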

Other observations

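A list of 12 miRNAs known from metabolic regulation held eca-miR-33a, eca-miR-33b, eca-miR-122, eca-miR-143, eca-miR-27a, eca-miR-27b, eca-miR-34a, eca-miR-335, eca-miR-370, eca-miR-378, eca-miR-802 and eca-miR-375. Of these, eca-miR-375 was not analysed here and eca-miR-802 was tested in no comparison. Between pregnant and cyclic mares 0 of 10 tested were called in endometrium and 0 of 9 in UF, where 3.37% and 4.92% of all miRNAs were. Between embryo and pregnant endometrium 3 of 10 tested were called higher and 5 lower (all miRNAs 28.7% and 42.6%), and between YS fluid and pregnant endometrium 2 of 9 were called higher and 4 lower (all miRNAs 17.9% and 35.2%). eca-miR-378, which lies in the gene of the mitochondrial coactivator PGC-1β in mammals, rose from 2447 ± 256 to 27296 ± 5749 TMM-scaled CPM (SD, n = 5 each) in the embryo, a log2 fold change of 3.48 (FDR 2.1e-07 from edgeR), and by 2.48 in YS fluid (FDR 1.1e-05). eca-miR-27b fell in both, with log2 fold changes of −3.78 and −4.91 (edgeR FDR 2.2e-06 and 5.5e-07). Against pregnant UF, 3 of 7 tested were called higher and 4 lower in embryo (all miRNAs 29.7% and 38.7%) and 2 of 7 higher and 4 lower in YS fluid (all miRNAs 23.5% and 36.1%). Between embryo and YS fluid 1 of 7 was called higher and 0 lower in embryo (all miRNAs 22% and 13.1%). Between UF and endometrium 3 of 10 were called lower in pregnant and 2 of 9 in cyclic mares (all miRNAs 20.1% and 18.9%), with 0 higher (all miRNAs 13.6% and 11.9%).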
